A study of Mus musculus with 6 samples.

Results

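DEAD and DEAH box RNA helicases were followed in cells of the Atoh1 lineage from the mouse rhombomere 1 and isthmus region. They were taken as every probe set with a single gene symbol that starts with Ddx or Dhx followed by a digit, without Ddx3y, which gave 113 probe sets of 51 genes (35 Ddx and 16 Dhx) out of 18193 genes with such a probe set. The choice read gene symbols and no signal, but the family was picked with earlier results of the same comparison known, so the counts below describe its members and are no independent evidence. E10-labelled cells came from embryos whose dams received tamoxifen (4 mg per 35 g) at E10.5 (embryonic day), and E13-labelled cells from embryos dosed at E13.5. All embryos were Swiss Webster and carried Atoh1-CreER and the RCE EGFP reporter, so that cells expressing Atoh1 around the time of dosing kept EGFP, and the EGFP-positive cells were sorted at E14.5. There is no group without the transgene, and each group had 3 samples, each on its own Affymetrix Mouse Genome 430 2.0 array. Nothing in the labels ties a sample to a litter, so p-values cover the scatter of these samples, which may be technical. Signals are MAS5 intensities in arbitrary units on a linear scale. Differences are E10-labelled minus E13-labelled means of log2 signal with limma's standard error, so a negative value means a lower signal in E10-labelled cells. "Called" means an adjusted p under 0.05 in limma's two-sided test over 23471 probe sets, those above their array's median signal on at least 3 of the 6 arrays, with Benjamini-Hochberg adjustment over all of them.

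DEAD and DEAH box proteins are ATP-dependent enzymes that unwind short RNA duplexes or strip proteins from RNA, and are named for the residues of a conserved ATPase motif. In the nucleolus many of them drive the folding and cleavage of ribosomal RNA precursors and the release of small nucleolar RNAs. In the spliceosome others drive the rearrangements of small nuclear RNAs that precede and follow the splicing reactions, and further members act in mRNA export, translation, decay and the sensing of viral RNA. Growing and dividing progenitors are known for high ribosome production. Each gene was read from its brightest probe set by mean log2 signal, here called its representative, and 45 of the 51 genes had a tested one. The platform table gives no positions of the probes, so levels were compared between arrays and not between genes.

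Atoh1 itself, the proneural factor on which the labelling rests, had 936, 397 and 738 units in E10-labelled cells, against 9733, 6819 and 9372 units in E13-labelled cells. Median signals of the 6 arrays were 97.7 to 112 units, and pairs of arrays correlated (Spearman) at 0.874 to 0.893 among E10-labelled, 0.938 to 0.945 among E13-labelled arrays and 0.846 to 0.886 between the groups. The 3′ to 5′ ratio of the Actb control, which rises with RNA degradation, was 17.4, 19.4 and 26.2 in E10-labelled and 16.1, 15.0 and 12.9 in E13-labelled arrays. That of the Gapdh control was 10.6, 12.5 and 13.2 in E10-labelled and 12.1, 9.47 and 11.1 in E13-labelled arrays, with overlapping groups. The part of RNA quality in the results was not tested. The third E10-labelled array had a low signal of the X-inactivation transcript Xist (166 units, against 8141 to 19797 units on the other 5 arrays), and the third E13-labelled array a low signal of the Y-linked gene Eif2s3y (14.1 units, against 826 to 1772 units on the other 5 arrays). Results were therefore also computed without these arrays. For the marker counts that follow, 8.49% of all genes with a representative, tested or not, were called lower and 9.87% higher. Of 9 cycling cell markers with a probe set, 9 were called lower in E10-labelled cells, with summed signals of 5622 to 7153 units against 47230 to 49760 units in E13-labelled cells. Of 10 markers of postmitotic neurons 5 were called higher and none lower (8 and 1 at an unadjusted p under 0.05), with sums of 103242 to 108584 units in E10-labelled cells, against 53065 to 59928 units in E13-labelled cells. The part of these cell states in the results below was not tested, and in such bulk samples fewer cells of a type and less RNA per cell cannot be told apart. Of markers of other cell types, 8 of 8 glial, 5 of 5 endothelial, 7 of 8 microglial and blood and 5 of 5 meningeal genes had a probe set, and none was at 0. Glial sums were 10731 to 12516 units in E10-labelled cells, against 5038 to 7402 units in E13-labelled cells, with Olig1, Olig2 and Fabp7 called higher and Slc1a3 and Pdgfra lower. Endothelial sums were 371 to 2104 units in E10-labelled cells, against 219 to 1262 units in E13-labelled cells. Sums for microglia and blood were 414 to 1290 units in E10-labelled cells, against 261 to 381 units in E13-labelled cells, and Csf1r, the 1 tested gene of that list, was called higher (1.79 ± 0.42, limma adjusted p = 0.0266). Meningeal sums were 245 to 1675 units in E10-labelled cells, against 268 to 479.6 units in E13-labelled cells. Gfap, Aqp4, Pecam1, Cdh5, C1qa, Aif1, Alas2, Dcn and Lum were below the array median on all arrays.

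Most helicase genes had lower signals in E10-labelled than in E13-labelled cells. Of the 51 genes, 41 had a difference below 0, compared with 47.4% of all genes with a representative. With 45 of them tested, 11 were called lower and 2 higher in E10-labelled cells, where 8.49% and 9.87% of all genes with a representative were called in these directions. All shares of called genes given here count untested genes in the total of 18193. The 1544 lower and 1796 higher calls came from 11064 tested genes, so the shares among tested genes are higher. By probe set, 17 of the 84 tested were called lower (12.6% of all tested probe sets) and 2 higher, where 26.0% of all tested probe sets were called in either direction. The median difference over all 51 genes was -0.47 on the log2 scale, against 0.06 over all genes. Without E13-labelled replicate 1, 2 or 3 the numbers of genes called lower were 7, 7 and 5, and without E10-labelled replicate 1, 2 or 3 they were 9, 12 and 10. Over all 23471 tested probe sets, 6104 were called in either direction with all arrays. That number was 3107, 3342 and 2942 without E13-labelled replicate 1, 2 and 3. It was 5673, 5849 and 5474 without E10-labelled replicate 1, 2 and 3. Both calls of a higher signal were lost when any 1 array was left out. Without the third arrays of both groups 2 genes were called lower, Dhx35 and Dhx40, and none higher, with 1504 calls over all tested probe sets. In those fits 38 to 43 of the 51 genes had a difference below 0.

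**Figure D1:**
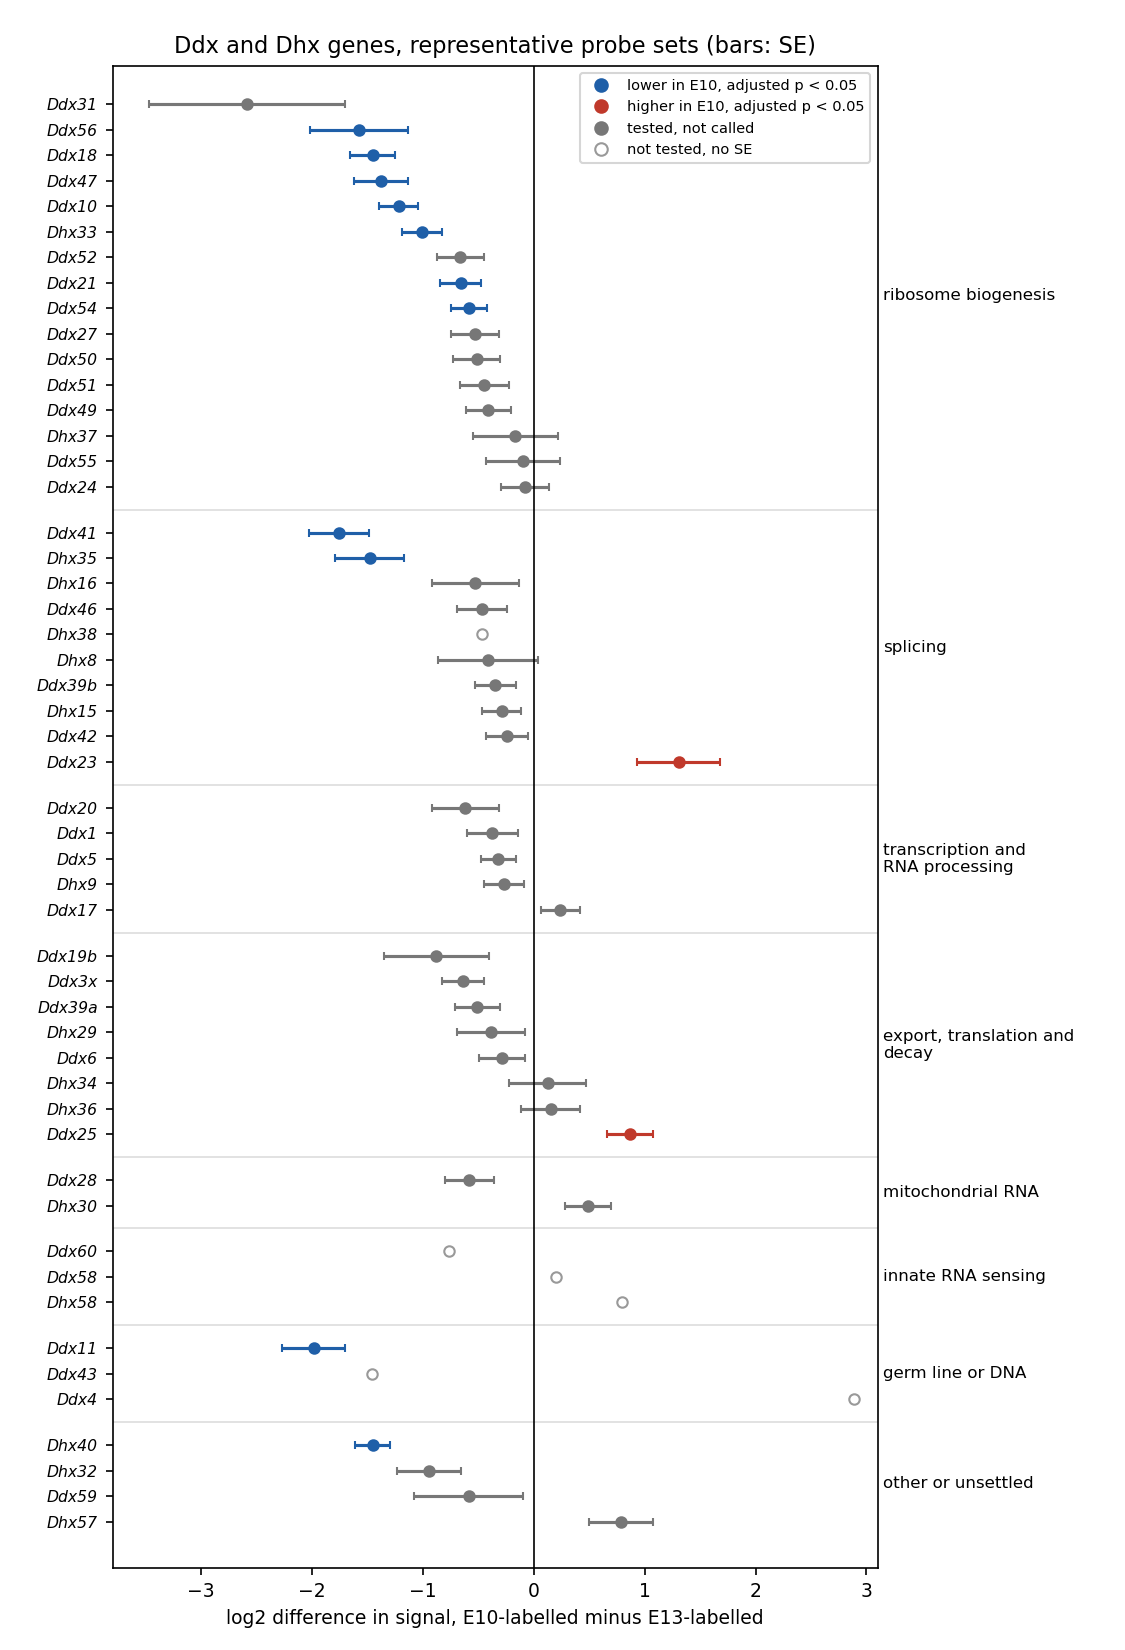
Log2 difference in signal (E10-labelled minus E13-labelled, horizontal axis) of the representative probe set of each of the 51 genes, grouped by role, with limma's standard error for the 45 tested genes. All 16 ribosome biogenesis genes lie left of 0, 7 of them called (blue), while the splicing genes reach from -1.76 (Ddx41) to 1.31 (Ddx23).

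Of the 16 helicases of ribosome biogenesis, all tested, 7 were called lower in E10-labelled cells and none higher (11 and 0 at an unadjusted p under 0.05). Of all genes, tested or not, 8.49% and 9.87% were called in these directions. The differences of all 16 representatives were below 0, and in 11 of 16 the arrays of the groups did not overlap, as for 18.1% of all genes in this direction. That share also counts untested genes, while all 16 members were tested. The median difference was -0.62. Ddx18, whose yeast relative Has1 acts in both ribosomal subunits, had 460.0, 651 and 645 units in E10-labelled cells, against 1605, 1601 and 1548 units in E13-labelled cells. All E10-labelled arrays lay below all E13-labelled arrays, and the difference was -1.45 ± 0.20 (SE; limma adjusted p = 0.00519). A second probe set of Ddx18 gave -1.54 ± 0.28 (limma adjusted p = 0.0121). Ddx10, the relative of yeast Dbp4, which frees the small nucleolar RNA U14 from the precursor of the small subunit, had 280.4, 289 and 312 units in E10-labelled cells, against 769.7, 640.1 and 647 units in E13-labelled cells. The groups were well apart (-1.22 ± 0.17, limma adjusted p = 0.00546). A dimmer probe set of Ddx10 differed by 0.06 ± 0.63 (limma adjusted p = 0.956), and when probe sets were averaged by gene the calls of Ddx10 and Ddx18 were lost (limma adjusted p = 0.235 and 0.0626).

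Ddx47, the relative of yeast Rrp3 of small subunit processing, had 330.4, 433 and 537 units in E10-labelled cells, against 1208, 936 and 1197 units in E13-labelled cells. The difference was -1.38 ± 0.24 (limma adjusted p = 0.0107, and 0.0515 without E13-labelled replicate 3). Dhx33, a DEAH box helicase linked to transcription of ribosomal DNA, had 531, 458 and 416 units in E10-labelled cells, against 875, 960.2 and 970.2 units in E13-labelled cells. Its difference of -1.004 ± 0.18 passed (limma adjusted p = 0.0111) but not without E13-labelled replicate 2 or 3 (adjusted p = 0.0514 and 0.0571). Its other probe set gave -1.60 ± 0.20 (limma adjusted p = 0.00376) and was below the array median on all 3 E10-labelled arrays, so it was tested through the E13-labelled arrays alone. Ddx56, a nucleolar helicase of large subunit assembly, had 119, 52.4 and 161 units in E10-labelled cells, against 357, 326 and 229 units in E13-labelled cells. The difference of -1.58 ± 0.44 was called (limma adjusted p = 0.0456) and was lost without E10-labelled replicate 1 or any E13-labelled replicate (adjusted p = 0.0722 to 0.141).

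Smaller differences were found for Ddx54 and Ddx21. Ddx54, the relative of yeast Dbp10 of the large subunit, had 2875, 2747 and 2709 units in E10-labelled cells, against 4452, 4011 and 4040.2 units in E13-labelled cells. The groups did not overlap (-0.58 ± 0.16, limma adjusted p = 0.0433), but the call was lost without any 1 array (adjusted p = 0.0621 to 0.146) and rests on a probe set type, _x_at, that can cross-hybridise. A plain _at probe set of Ddx54 gave -0.47 ± 0.20 and was not called (limma adjusted p = 0.128). An untested _x_at probe set of Ddx54 differed by 0.73, in the other direction. Ddx21, which binds ribosomal RNA and aids RNA polymerase I, had 797, 770.3 and 717 units in E10-labelled cells, against 1311, 1020.3 and 1298 units in E13-labelled cells (-0.66 ± 0.19, limma adjusted p = 0.0454), a call that was also lost without any 1 array. Ddx31, a relative of yeast Dbp7, had 302, 492 and 42.1 units in E10-labelled cells, against 1054, 1061 and 1214 units in E13-labelled cells. This was the largest difference of the list, with widely spread E10-labelled arrays, and it was not called (-2.59 ± 0.88, limma adjusted p = 0.0781). The 9 uncalled genes of the list had differences of -2.59 to -0.08 (limma adjusted p = 0.0689 to 0.855). Among them a second probe set was called lower for Ddx52, the relative of yeast Rok1 (-1.19 ± 0.23, limma adjusted p = 0.0135), and for Ddx49, the relative of yeast Dbp8, whose called probe set had at most 32.7 units in E10-labelled cells and was tested through the E13-labelled arrays alone. Ddx24, Ddx55 and Dhx37 differed by -0.08, -0.10 and -0.17, with overlapping groups, and other tested probe sets of Ddx24 (1 of 2) and Ddx50 (2 of 3) lay above 0. Against 7 with all arrays, the number of the 16 genes called lower was 4, 7 and 6 without E10-labelled replicate 1, 2 and 3, then 4, 3 and 2 without E13-labelled replicate 1, 2 and 3, and 0 without the third arrays of both groups. Calls over all tested probe sets also fell, from 6104 to 2942 without E13-labelled replicate 3 and to 1504 without the third arrays of both groups. Differences below 0 numbered 16 of 16 in that last fit and without E10-labelled replicate 3 or E13-labelled replicate 1, but 15 without E10-labelled replicate 1 or E13-labelled replicate 2, and 14 without E10-labelled replicate 2 or E13-labelled replicate 3. With probe sets averaged by gene 14 of 16 were below 0, and 15 with representatives free of _x_at, _s_at and _a_at types.

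**Figure D2:**
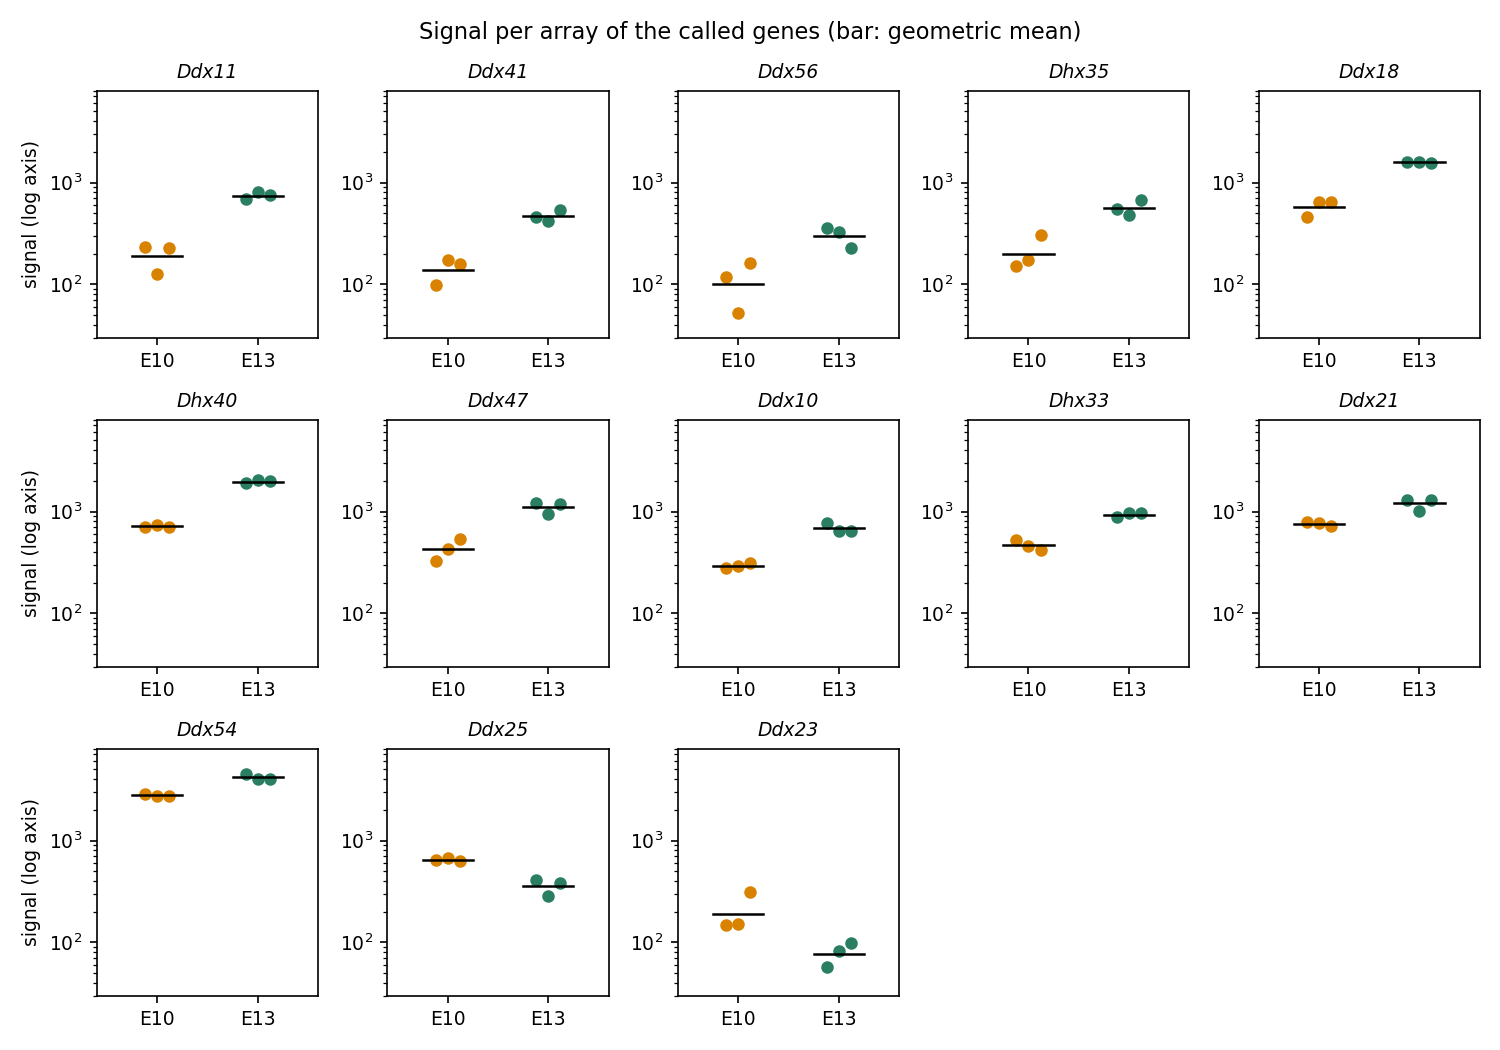
Signal on each of the 6 arrays (points, log axis) and the geometric mean of each group (bar) for the 13 called genes, E10-labelled on the left and E13-labelled on the right of each panel. The arrays of the groups do not overlap in any panel, which the choice of genes by calls on these same arrays favours. Ddx25 and Ddx23 are the genes with a higher signal in E10-labelled cells.

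Of the 10 splicing helicases 9 were tested, 2 were called lower and 1 higher in E10-labelled cells (2 and 1 at an unadjusted p under 0.05; 8.49% and 9.87% of all genes were called in these directions), 9 differences were below 0, and the median difference was -0.44. In 4 of the 10 the groups did not overlap with E10-labelled arrays lower (18.1% of all genes, tested or not), and in 1 with E10-labelled arrays higher. Ddx41, found with the catalytic spliceosome and also known as a DNA sensor, had 98.6, 173 and 159 units in E10-labelled cells, against 464, 418 and 538 units in E13-labelled cells (-1.76 ± 0.27, limma adjusted p = 0.00665). No E10-labelled array came near the E13-labelled range, and the call held without any 1 array. Dhx35, a helicase found in purified human spliceosomes, had 153, 174 and 304 units in E10-labelled cells, against 552, 476 and 667 units in E13-labelled cells. The difference was -1.48 ± 0.31 (limma adjusted p = 0.0186, and 0.0661 and 0.0756 without E13-labelled replicate 1 and 3).

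Among helicases of the spliceosome core, Ddx23, the Prp28 of the tri-snRNP, had 148, 151 and 316 units in E10-labelled cells, against 57.6, 81.8 and 98.6 units in E13-labelled cells. This higher signal was called (1.31 ± 0.37, limma adjusted p = 0.0475), but all E13-labelled arrays were below the array median, the probe set was tested only through the E10-labelled arrays, and the call was lost without any 1 array (adjusted p = 0.0536 to 0.147). A second, untested probe set of Ddx23 differed by -0.37. Dhx15, the Prp43 that takes spliceosomes apart and whose yeast form also acts in ribosome assembly, had 14373, 16981 and 14606 units in E10-labelled cells, against 20062, 18308 and 17766 units in E13-labelled cells. The groups did not overlap, and the difference of -0.29 ± 0.17 was not called (limma adjusted p = 0.262). Ddx46, the Prp5 that helps U2 snRNP bind the branch site, had 5 tested probe sets with differences of -2.02 to -0.47, of which 1 was called (-2.02 ± 0.47, limma adjusted p = 0.0249) and not the representative (limma adjusted p = 0.176). Dhx16, Dhx8, Ddx39b and Ddx42 were not called, with differences of -0.53 to -0.24. Dhx38, the Prp16 of the second step, was below the array median on all 6 arrays with both of its probe sets and was not tested.

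Set side by side, the ribosome biogenesis list had the lower median and mean, but the lists overlapped widely. Medians of the differences were -0.62 for 16 ribosome biogenesis and -0.44 for 10 splicing genes, means -0.84 and -0.47. Of the ribosome biogenesis genes 12 of 16 lay below the splicing median, and of the splicing genes 2 of 10 lay below the ribosome biogenesis median. The median log2 signal of the ribosome biogenesis list was 8.81, 9.02 and 8.81 on E10-labelled arrays, against 9.71, 9.89 and 9.92 on E13-labelled arrays. That of the splicing list was 8.80, 8.83 and 8.75 on E10-labelled arrays, against 9.23, 9.04 and 9.51 on E13-labelled arrays. For both lists every E10-labelled array lay below every E13-labelled array. Within arrays, the ribosome biogenesis median minus the splicing median was 0.01, 0.19 and 0.06 in E10-labelled cells, against 0.48, 0.85 and 0.40 in E13-labelled cells. The size of the gap depended on the measure. The group means of the within-array gap differed by -0.49, while the gap was -0.37 between the means of the differences and -0.18 between their medians. The gap between the medians of the differences, the measure followed here, changed to -0.032 with the mean over each gene's probe sets, -0.044 with representatives free of _x_at, _s_at and _a_at types, and -0.39 without the third arrays of both groups. It was -0.052 without E10-labelled replicate 1 and -0.084 without E13-labelled replicate 1, and -0.33 and -0.28 without the third E10-labelled and the third E13-labelled array. No test was made of this gap, since the lists were drawn up with results known.

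**Figure D3:**
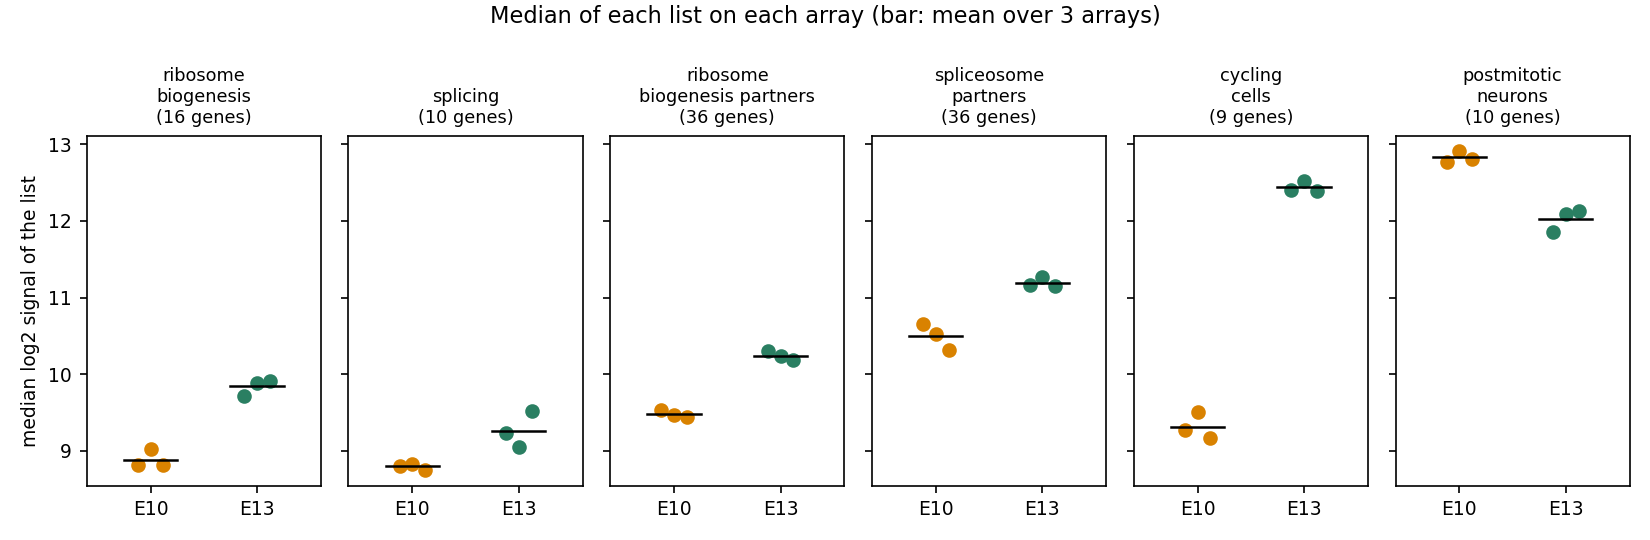
Median log2 signal of 6 gene lists on each array (points) with the mean over 3 arrays (bar), E10-labelled on the left of each panel. Both helicase lists and both partner lists are lower on every E10-labelled array, as are the cycling markers (9.31 against 12.44 on average), while the markers of postmitotic neurons are higher.

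Of 36 other ribosome biogenesis genes 35 were tested, 12 were called lower and 1 higher in E10-labelled cells (8.49% and 9.87% of all genes), with a median difference of -0.70. Dkc1, the pseudouridine synthase of box H/ACA particles, had 871, 1005 and 724 units in E10-labelled cells, against 2345, 2293 and 2180.4 units in E13-labelled cells (-1.40 ± 0.19, limma adjusted p = 0.00478). Fbl, the methyltransferase of box C/D particles, had 2999.6, 1913 and 3439 units in E10-labelled cells, against 6725, 6628 and 6439.8 units in E13-labelled cells (-1.29 ± 0.26, limma adjusted p = 0.0159), a call lost without any 1 E13-labelled array (adjusted p = 0.0596 to 0.0621). Utp20, of the small subunit processome, averaged 435 ± 218 units in E10-labelled and 1104 ± 199 units in E13-labelled cells (SD, n = 3 each; limma adjusted p = 0.0401), a call lost without any 1 array except E10-labelled replicate 3 (adjusted p = 0.0544 to 0.126). The member called higher, named after its value was seen, was Bysl, a small subunit assembly factor (0.92 ± 0.18, limma adjusted p = 0.0148). The count of 12 fell to 7 without E10-labelled replicate 1, to 4 without any 1 E13-labelled array and to 0 without the third arrays of both groups. Over all tested probe sets, 6104 calls fell to 5673 without E10-labelled replicate 1. They fell to 2942 to 3342 without 1 E13-labelled array and to 1504 without the third arrays of both groups.

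Of 36 spliceosome genes with a probe set, all tested, 8 were called lower and none higher (15 and 0 at an unadjusted p under 0.05), where 8.49% and 9.87% of all genes were called, and the median difference was -0.46. Prpf31, a tri-snRNP protein, averaged 864 ± 301 units in E10-labelled and 1943 ± 185 units in E13-labelled cells, a difference of -1.22 ± 0.28 (limma adjusted p = 0.0256). Sf3a3, of the U2 snRNP, differed by -0.94 ± 0.22 (limma adjusted p = 0.0249), and Prpf4, another tri-snRNP protein, by -0.86 ± 0.23 (limma adjusted p = 0.0418). The count of 8 became 5, 5 and 4 without E10-labelled replicate 1, 2 and 3, and 0 without any 1 E13-labelled array or without the third arrays of both groups. Over all tested probe sets, 6104 calls became 5673, 5849 and 5474 without E10-labelled replicate 1, 2 and 3. They became 2942 to 3342 without 1 E13-labelled array and 1504 without the third arrays of both groups. Among RNA helicases that the symbol rule leaves out, 7 of 8 listed had a probe set and 6 were tested. Eif4a2 was called higher and none lower, where 9.87% and 8.49% of all genes were called. Of the 7 differences 2 were below 0, and the median was 0.24. The untested gene, Eif4a3, had only 4.44 to 6.83 units on the arrays, and its difference of 0.40 is counted here. Eif4a2, a DEAD box subunit of the cap-binding complex, had 12462.5, 11625 and 11553 units in E10-labelled cells, against 6664, 5527 and 5292 units in E13-labelled cells (1.03 ± 0.18, limma adjusted p = 0.00972, and 0.0524 without E13-labelled replicate 3).

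Of the multifunctional nuclear helicases Ddx1, Ddx5, Ddx17, Ddx20 and Dhx9, none was called in either direction (0 also at an unadjusted p under 0.05), and their differences were -0.62 to 0.24. Of all genes, tested or not, 8.49% were called lower and 9.87% higher, so few calls would be looked for among 5 genes. Ddx20, the Gemin3 of the SMN complex that assembles snRNPs, had 380.1, 695 and 598 units in E10-labelled cells, against 644, 979 and 904 units in E13-labelled cells (-0.62 ± 0.30, limma adjusted p = 0.182). Ddx1, of the tRNA ligase complex, differed by -0.37 ± 0.23 with overlapping groups (limma adjusted p = 0.287). Probe sets of Ddx5 and Ddx17, paralogous coregulators of transcription and splicing, differed in sign. Of 5 tested probe sets of Ddx5 4 were below 0 and 1 above, which had 19088, 14032 and 13803 units in E10-labelled cells, against 11692, 10866 and 10712 units in E13-labelled cells (0.48 ± 0.20, limma adjusted p = 0.13). Its representative had 12998, 12824 and 12629 units in E10-labelled cells, against 15829, 16199.6 and 15973 units in E13-labelled cells (-0.32 ± 0.16, limma adjusted p = 0.184). The groups were thus separated in opposite directions by these probe sets, neither of them called. Ddx17 differed by 0.24 ± 0.18 with its representative and by -0.32 ± 0.16 with another probe set (limma adjusted p = 0.36 and 0.193). The tested Ddx5 and Ddx17 probe sets are of the _a_at and _x_at types, which can detect several transcripts or related sequences. The plain _at probe sets of Ddx5 and Ddx17 were not tested and differed by 0.67 and 0.38.

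Of 8 helicases of export, translation and decay, all tested, 1 was called higher and none lower (1 and 2 at an unadjusted p under 0.05), where 9.87% and 8.49% of all genes were called. Ddx25, a helicase of mRNA export and translation best known from testis, had 643, 673 and 633 units in E10-labelled cells, against 413, 285 and 384 units in E13-labelled cells (0.87 ± 0.20, limma adjusted p = 0.027). The groups did not overlap, but the call was lost without any 1 array (adjusted p = 0.051 to 0.0882). Ddx3x, an X-linked helicase of translation initiation, had 8857, 6815 and 6742 units in E10-labelled cells, against 11228, 12198 and 11247 units in E13-labelled cells. The difference of -0.64 ± 0.19 narrowly missed the threshold (limma adjusted p = 0.0523) and was -0.59 without the third arrays of both groups (adjusted p = 0.237). Ddx39a, a paralog of the export factor Ddx39b, had 7017, 9768 and 7926 units in E10-labelled cells, against 13131, 11028 and 10812 units in E13-labelled cells with its representative (-0.51 ± 0.20, limma adjusted p = 0.118). Another of its 5 probe sets, of the plain _at type, was called lower (-0.95 ± 0.21, limma adjusted p = 0.0238). Ddx6, Ddx19b, Dhx29, Dhx34 and Dhx36 were not called.

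Dhx40 and Ddx11 had the lowest adjusted p and the largest called difference of the representatives. Dhx40, a DEAH box protein placed in no role list here, had 712, 737 and 710.2 units in E10-labelled cells, against 1898, 2024 and 1991 units in E13-labelled cells. Both groups were tight, the difference was -1.45 ± 0.16 (limma adjusted p = 0.00248), and the call held under all alternatives run at the 0.05 threshold. Ddx11, a DNA helicase of sister chromatid cohesion that shares the symbol but not the RNA substrate, had 234, 125 and 227 units in E10-labelled cells, against 685, 807 and 748 units in E13-labelled cells (-1.99 ± 0.29, limma adjusted p = 0.00557). Its second probe set moved the same way by -1.59 ± 0.51 and was not called (limma adjusted p = 0.0658). Dhx32 had 671, 1400.4 and 987 units in E10-labelled cells, against 1833, 1869 and 1937 units in E13-labelled cells (-0.95 ± 0.29, limma adjusted p = 0.0584). Dhx57 and Ddx59 were not called.

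The 2 helicases of mitochondrial RNA were not called, where 8.49% of all genes were called lower and 9.87% higher. Ddx28, of the mitochondrial large ribosomal subunit, had 222, 166 and 223 units in E10-labelled cells, against 268, 282 and 365 units in E13-labelled cells (-0.58 ± 0.22, limma adjusted p = 0.104). Dhx30, a factor of mitochondrial ribosome assembly, differed by 0.49 ± 0.21 with its representative (limma adjusted p = 0.132), while its 3 other probe sets gave -0.30, -0.26 and 1.34. Genes of innate RNA sensing and of the germ line had low signals: Ddx58 (RIG-I), Dhx58 and Ddx60, the germ cell helicase Ddx4 and Ddx43 were below the filter with every probe set and not tested. Ddx58 had 63.6, 77.7 and 98.6 units in E10-labelled cells, against 44.6, 95.0 and 75.8 units in E13-labelled cells. These values overlap and lie below the array medians.

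**Figure D4:**
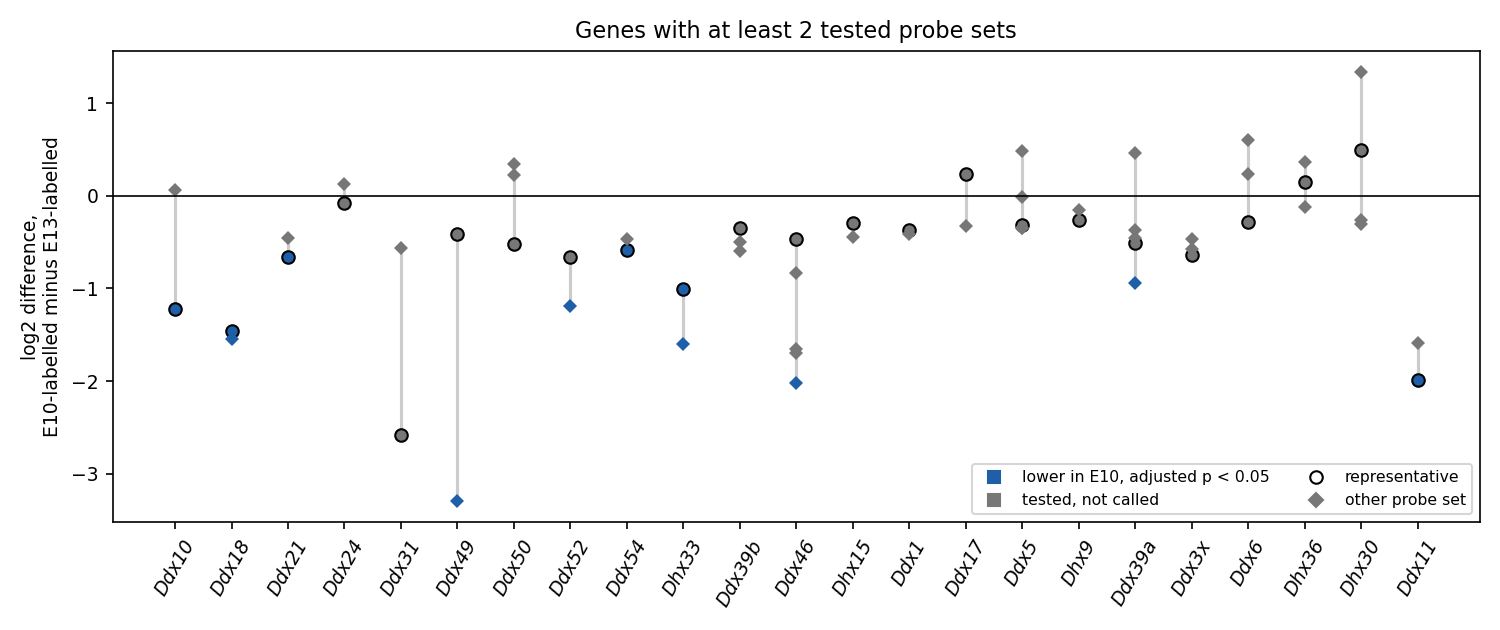
Log2 difference (E10-labelled minus E13-labelled) of every tested probe set of the 23 genes that had at least 2, with the representative outlined as a circle. In 14 genes all probe sets lie below 0, in 9 the signs are mixed, and called probe sets (blue) lie on the lower side alone.

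Of the 51 genes 34 had more than 1 probe set, and 23 had at least 2 tested ones. In 14 of the 23 all tested probe sets were below 0, in none were all above 0, and in 9 the signs differed. No gene had probe sets called in opposite directions. The widest spans between tested probe sets were those of Ddx49 (-3.29 to -0.41), Ddx31 (-2.59 to -0.56), Dhx30 (-0.30 to 1.34) and Ddx46 (-2.02 to -0.47).

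The genes lie on 16 chromosomes, with 8 on chromosome 11 and 1 on the X chromosome. RefSeq promoter windows (GRCm38.p6, 250 bases before to 50 after a gene's start) were found for 45 of the 51 genes, 56 windows in all. On either strand, the ETS-type word CCGGAAG stood in 21 of the 56 windows (37.5%), compared with 8.86% of all 32851 windows and 11.6% of the 21262 windows of protein-coding genes. By gene, 8 of 16 ribosome biogenesis genes, 4 of 8 splicing genes and 4 of the 10 called-lower genes with a window held it. The E-box CACGTG, which Myc and Max bind among others, stood in 12.5% of member windows and 7.15% of all windows, in 1 of 16 ribosome biogenesis and 2 of 8 splicing genes. The words CACCTG (12.5% against 20.2% of all windows) and TATAAA (10.7% against 13.6%) were also searched on both strands. Words of the NRF1 type (5.36% against 0.971%), the YY1 type (1.79% against 0.633%) and the ZBTB33 type (0 windows against 0.466%) completed the search. Windows of the same gene overlap, and a match is a description of letters, not a binding site. The start is the one used by the promoter table, which can lie inside the gene's full span: the last 58, 101 and 62 printed bases of Ddx10, Dhx33 and Dhx35 do. The 250 bases before that start are shown for Ddx10 and Dhx33, called lower in the ribosome biogenesis list, and Dhx35, called lower in the splicing list, with the 2 leading words in capitals (5′ to 3′ on the gene's strand; Ddx10 chr9:53248113-53248362, minus strand; Dhx33 chr11:71004433-71004682, minus strand; Dhx35 chr2:158794557-158794806, plus strand).
Ddx10: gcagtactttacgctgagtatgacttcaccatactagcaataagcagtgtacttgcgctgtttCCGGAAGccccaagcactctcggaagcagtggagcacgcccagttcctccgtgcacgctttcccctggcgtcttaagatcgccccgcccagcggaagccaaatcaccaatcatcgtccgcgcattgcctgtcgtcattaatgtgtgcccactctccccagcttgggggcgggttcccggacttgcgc
Dhx33: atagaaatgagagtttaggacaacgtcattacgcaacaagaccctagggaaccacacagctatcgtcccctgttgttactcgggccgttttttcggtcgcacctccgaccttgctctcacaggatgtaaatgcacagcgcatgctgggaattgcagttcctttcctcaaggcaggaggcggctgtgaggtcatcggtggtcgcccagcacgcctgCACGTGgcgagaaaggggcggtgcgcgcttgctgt
Dhx35: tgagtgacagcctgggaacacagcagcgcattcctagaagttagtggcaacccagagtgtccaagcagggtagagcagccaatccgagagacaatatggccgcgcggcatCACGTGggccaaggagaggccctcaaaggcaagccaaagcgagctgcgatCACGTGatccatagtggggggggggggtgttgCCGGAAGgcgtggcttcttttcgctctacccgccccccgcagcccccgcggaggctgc
In Ddx10 the ETS-type word began 187 bases before the start, in Dhx33 the E-box began 35 bases before it, and Dhx35 held 2 E-boxes and 1 ETS-type word, beginning 140, 90 and 58 bases before it.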

How the data were processed

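The 6 deposited columns hold 1 signal intensity per probe set and array, made by the authors with MAS5, per the submitters' processing notes; for version, detection calls and pooling no source here gives details. The values show that every array was scaled to a mean of 500 without its lowest and highest 2 percent, so a change in total RNA per cell cannot be read. The table held 45101 probe sets, of which 34958 name 1 gene symbol in the platform table and 64 controls were left out. All 51 symbols matched the RefSeq gene table, which also gave chromosomes.

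Log2 signals were fitted with limma 3.58.1 in R 4.3.3 (lmFit, eBayes, 2.26 prior degrees of freedom), without a block. A probe set was tested if above the 50th percentile of its array on at least 3 of 6 arrays. The number of arrays limits the precision. Replicate numbers did not pair the arrays (correlations of same-numbered deviations -0.03, -0.07 and -0.01). The members, role lists, partner lists and marker lists were chosen with earlier results of these data known. Named in each role list were up to 5 called genes with the largest difference, the brightest gene, any with opposite calls, and up to 2 as values where none was called; up to 3 in each partner list; Atoh1. Other members named in the text, Bysl included, were named after their values were seen. Alternatives are in the closing section. Arrays left out kept the same tested probe sets.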

Additional observations from a re-analysis of the deposited data

How the results depend on the processing

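The main counts were 17 probe sets and 11 genes called lower and 2 and 2 called higher in E10-labelled cells, and the median differences were -0.62 for ribosome biogenesis, -0.44 for splicing and -0.18 for the gap between them. With the replicate block, which rests on a shared number alone, 9 probe sets and 7 genes were lower and 1 and 1 higher. Without a filter and at an adjusted p of 0.01, 6 probe sets and 5 genes were lower and 0 and 0 higher (limma; 3 genes higher at an unadjusted p under 0.05 with all arrays). The trend and robust settings gave 29 probe sets lower and 5 higher, with 16 genes lower and 3 higher. Calls over all tested probe sets numbered 6104 in the main fit, 3593 with the block, 2435 at 0.01 and 7052 with trend and robust. Without a filter they numbered 2719 of 45037. Median centring, the floor at the array median, the filter at the 70th percentile and array weights each left 1 probe set and 1 gene called higher, and averaging each gene's probe sets left 1 gene higher. That mean also moved the ribosome biogenesis median to -0.50. Leaving out 1 array gave 6 to 20 probe sets and 5 to 12 genes lower, and 0 to 1 probe sets and 0 to 1 genes higher, with medians of -0.67 to -0.58 for ribosome biogenesis, -0.58 to -0.26 for splicing and -0.33 to -0.052 for the gap. Calls over all tested probe sets then numbered 2942 to 5849. Added after the data were seen, leaving out the third arrays of both groups gave 3 probe sets and 2 genes lower and 0 and 0 higher, with -0.24 for splicing and -0.39 for the gap. In that fit 1504 of all tested probe sets were called. The gap was -0.21 over tested members alone and -0.16 without Dhx15. The cause of these changes was not tested. Without a filter the adjustment ran over 45037 probe sets. Among the genes named by rule, uncalled differences of Dhx30, Ddx58 and Dhx32 changed sign. Dhx30 moved to -0.30 with representatives free of cross-hybridising types. Ddx58 moved to -0.11 without E13-labelled replicate 1 (-0.11 to 0.44 over the arrays left out). With the mean over their probe sets Dhx32 moved to 0.29, and Ddx5, which the rule did not name, to 0.022. Quantile normalization and an offset of 5.97 units kept all these counts within 1.5 times of the main ones. Dim probe sets limit the precision, since MAS5 signals near background vary strongly on the log scale.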
